A study of Mus musculus with 6 samples.

Results

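The subject here is the abundant noncoding RNA of mouse ear epidermis. It comprises every RefSeq noncoding transcript (accession beginning NR_) whose mean over 6 RNA-seq libraries was at least 10 TPM (transcripts per 1000000, a length-normalised share of the library), and whose gene has no protein-coding transcript in the same table. The rule kept 164 transcript rows, belonging to 160 genes, out of 37903 rows and 24800 genes. Of 213 noncoding rows that reached 10 TPM, 49 were dropped because their gene also has a coding row. Since a level chose the members, the levels are a description. At the limit, the nearest excluded genes were Snord32a with a mean of 9.84 TPM, Scarna2 with 9.80 and Snord47 with 9.71, and the lowest members were A230072C01Rik with 10.01, 1700047E10Rik with 10.18 and Snora64 with 10.28.

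All libraries came from ear skin of female C57BL6/N mice at 8 weeks of age. In 3 libraries the whole epidermis had been lifted off with the protease dispase (epidermal sheets), and in 3 the upper layers, described as holding SG1 and SG2 cells of the granular layer, had been released with exfoliative toxin A (ETA sheets). The toxin cleaves desmoglein 1, an adhesion protein of the upper epidermis. No genotype or drug treatment separates the groups, but the enzyme used to lift the sheet differs along with the layers recovered, so layer and enzyme cannot be told apart. Nothing states that sheets of the same group were taken from different mice, and the p-values then measure the spread between these samples only.

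Each library totals 1000000 TPM and the read depth is unknown. Groups follow the sample titles; 2 of the 6 column headers name the other kind of sheet. The titles fit the cell markers: the summed TPM of 5 basal keratinocyte genes was 14536 to 16941 in epidermal sheets and 130.2 to 212.8 in ETA sheets, and Lor, which encodes the granular-layer protein loricrin, rose from a mean of 3331 to 89898 TPM. Of the 8 suprabasal and granular keratinocyte genes, 5 were called higher, 2 lower and 1 was not called. ETA sheet 2 stood apart in its zeros: of 6679 coding genes averaging 10 TPM or more, it lists 164 at 0, against 4 to 22 in the other libraries. Among the 164 noncoding rows it had 44 zeros, against 21 to 40 elsewhere.

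Noncoding RNAs act without being translated. Malat1 collects in nuclear speckles, bodies rich in splicing factors, and Neat1 is the scaffold of paraspeckles, bodies built from RNA-binding proteins. Host genes carry small nucleolar RNAs (snoRNAs) in their introns, and the spliced remainder is the transcript counted here. Several host genes start with the pyrimidine tract typical of ribosomal protein genes, and their spliced RNAs are known targets of nonsense-mediated decay. MicroRNA hairpins are processed to short guides that repress messenger RNAs.

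The 160 genes fell into 6 listed long noncoding RNAs (lncRNAs) known mostly for nuclear roles, 16 snoRNA host genes, 1 microRNA host gene, 55 other lncRNAs, 21 transcribed pseudogenes, 52 small RNAs, 1 ribosomal RNA, 3 genes that the reference now annotates as coding and 5 rows without a gene name. Both groups had a mean of at least 10 TPM for 75 genes. Another 55 genes reached it in epidermal sheets only and 30 in ETA sheets only, so for those the rule itself favours a difference. Changes below are ETA minus epidermal sheets on the log2(TPM + 1) scale, tested with limma and adjusted over 12575 genes by Benjamini-Hochberg, and a gene is called when its adjusted p is under 0.05.

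Of the 160 noncoding genes, 38 were called higher in ETA sheets, 58 lower and 64 were not called. Over all genes tested, 73.9% were called, 10.5% higher and 63.4% lower; among all genes averaging 10 TPM or more, 82.1% were called, 14.4% higher and 67.7% lower. The median log2 change of all genes tested was -1.31. After each library was centred on its median, 60 of the 160 were called higher and 17 lower, while 49.6% of all genes were called, 30.0% higher and 19.5% lower.

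**Figure D1:**
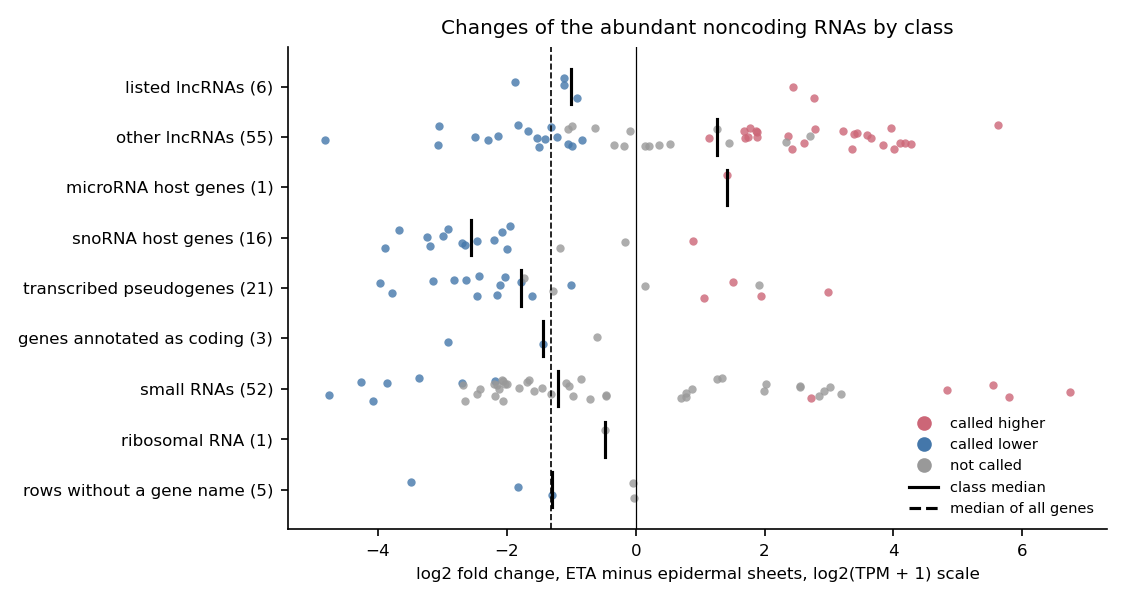
Log2 fold change (horizontal axis, ETA minus epidermal sheets, log2(TPM + 1) scale) of each of the 160 genes, grouped by class with the number of genes in brackets. Points are genes coloured by call, short bars are class medians and the dashed line is the median of all genes tested, -1.31; the other lncRNAs have a median of 1.26 and the snoRNA host genes of -2.56. Genes listed at 0 in 1 group are drawn at their fitted value, which depends on the pseudocount.

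Malat1 and Neat1 were the only 2 of the 6 listed lncRNAs that rose. Malat1 stood at 104, 92.4 and 107.9 TPM in the epidermal sheets and at 459, 648 and 568 TPM in the ETA sheets. All 3 ETA sheets were above all 3 epidermal sheets, by 5.50-fold between the means, a log2 change of 2.44 ± 0.19 (SE, n = 3 per group; limma adjusted p = 1.60e-05). Neat1 stood at 67.3, 55.7 and 59.1 TPM in epidermal sheets and at 417, 459 and 379 TPM in ETA sheets. Its groups were as clearly apart, with a 6.89-fold difference and a log2 change of 2.76 ± 0.17 (SE, n = 3 per group; limma adjusted p = 7.58e-06). Relative to the median of all genes the changes were 3.75 for Malat1 and 4.08 for Neat1.

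Neat1 makes a short transcript and a long one that share their start, and the long one is the paraspeckle scaffold. The row of the short transcript, 3004 bases, held nearly all of the signal, with 67.0, 55.7 and 58.8 TPM in epidermal sheets and 417, 458 and 379 TPM in ETA sheets. The row of the long transcript, 20771 bases, held between 0.08 and 0.78 TPM in every library. Reads from the shared stretch can be assigned to either row, and whether the libraries were selected for poly(A) RNA is not given in the sources used here. The rise was seen in the row of the short transcript, and how the shared reads divide between the transcripts was not tested. The row of the long transcript, the paraspeckle scaffold, was under 1 TPM in every library, and its change was not tested.

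The other 4 listed lncRNAs were called lower in ETA sheets as deposited. The lower share of the 6 was 66.7%, near the 67.7% among all genes averaging 10 TPM or more. Xist and Oip5os1 reached 10 TPM in epidermal sheets only, where the rule itself favours a fall. Xist, which coats the inactive X chromosome in female cells, stood at 22.1, 28.9 and 39.8 TPM in epidermal and 11.1, 5.01 and 6.78 TPM in ETA sheets, a log2 change of -1.88 ± 0.33. Norad, which binds Pumilio proteins and is mainly cytoplasmic, stood at 61.9, 60.7 and 75.3 TPM against 37.6, 27.1 and 26.4 TPM. The groups of both genes did not overlap. Tug1 changed by -0.91 ± 0.24 and Oip5os1, the Cyrano transcript that directs decay of miR-7, by -1.12 ± 0.24. Both sum several rows. The abundant Tug1 row was 0.34-fold in ETA sheets, while rows averaging under 10 TPM were 4.02-fold and 1.47-fold. The abundant Oip5os1 row was 0 in ETA sheet 2, where another row gave the whole value of 8.24 TPM. After median centring Xist stayed negative without a call (-0.41), while Norad turned to 0.36, Oip5os1 to 0.35 and Tug1 to 0.55, which was called higher. Relative to the median gene, Norad lay at 0.21, Oip5os1 at 0.20 and Tug1 at 0.40.

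**Figure D2:**
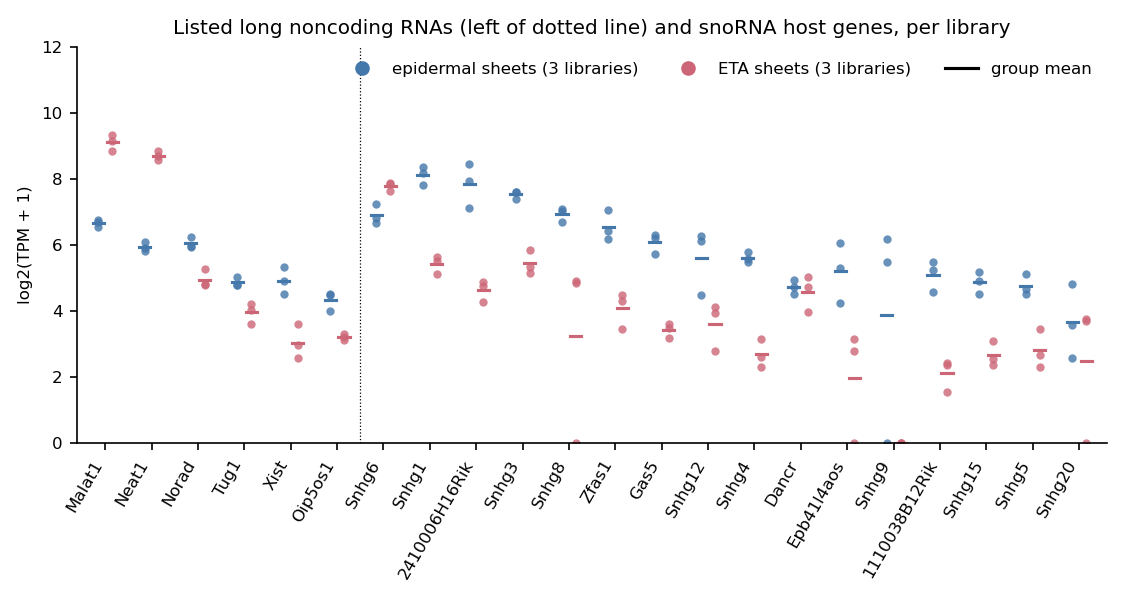
Log2(TPM + 1) per library (vertical axis) of the 6 listed lncRNAs, left of the dotted line, and the 16 snoRNA host genes, with 3 epidermal sheets and 3 ETA sheets as points and the group means as bars. Malat1, Neat1 and Snhg6 are the genes whose 3 ETA sheets lie above all epidermal sheets; Snhg8, Snhg9, Epb41l4aos and Snhg20 have zeros in ETA sheets.

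Most genes for proteins of the same nuclear bodies were lower, with 2 exceptions among those of speckles. All 18 paraspeckle protein genes tested were called lower, 10 of them also after centring and none of them higher. Over all genes tested 63.4% were called lower, and 19.5% after centring. Nudt21, a subunit of cleavage factor I that acts in choosing poly(A) sites, fell from 78.4 ± 15.2 to 3.84 ± 2.55 TPM, a log2 change of -4.15. Hnrnpk, the most abundant of the list, fell from 296 ± 15.6 to 62.7 ± 15.5 TPM. Sfpq and Nono, core paraspeckle proteins, changed by -1.82 and -2.08; they were added here after their values were seen, and Sfpq was not called after centring (-0.35).

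Of 23 nuclear speckle protein genes, 21 were called lower and 2 higher, and after centring 8 were lower and 2 higher. The lower share as deposited was 91.3%, against 63.4% of all genes tested. After centring 19.5% of all genes were lower and 30.0% higher. The 2 that rose were Clk1 and Clk4, kinases that phosphorylate SR splicing factors. Clk1 stood at 217, 193 and 176 TPM in epidermal and 324, 342 and 375 TPM in ETA sheets, with no overlap and a log2 change of 0.83 ± 0.17 (limma adjusted p = 0.00204). Srsf3, an SR protein, changed by -2.79 ± 0.19. In whole sheets, fewer cells of a type and less RNA per cell cannot be told apart.

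The snoRNA host genes took the opposite course to Malat1. Of 16 host genes 13 were called lower, 1 higher and 2 were not called, with a median log2 change of -2.56 against -1.31 for all genes. Among all genes averaging 10 TPM or more 67.7% were called lower. Of the 16, 8 reached 10 TPM in epidermal sheets only, and among the 8 that reached it in both groups 6 were called lower. Their summed share of the library was 0.143 ± 0.017% in the epidermal group against 0.0448 ± 0.0025% in the ETA group (SD, n = 3 each). In the mouse annotation 15 of the 16 contain at least 1 snoRNA gene; the exception is Snhg20. After centring 6 were lower (Snhg1, 2410006H16Rik, Zfas1, Gas5, Snhg4 and 1110038B12Rik) and 2 higher (Snhg6 and Dancr). Of those 6, Gas5, Snhg4 and 1110038B12Rik reached 10 TPM in epidermal sheets only, where the rule itself favours a fall. Over all genes tested 19.5% were lower after centring and 30.0% higher.

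The start sites of the host genes are shown because several begin near the pyrimidine tract known from ribosomal protein genes. Each run below covers 20 bases before the annotated start and 40 from it on (RefSeq, GRCm38.p6); capitals mark a C followed by at least 4 pyrimidines that begins within 10 bases of the start, searched on the transcribed strand.
Gas5, chr1:161035146-161035205, + strand: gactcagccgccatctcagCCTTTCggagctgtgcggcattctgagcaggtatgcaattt
Snhg3, chr4:132353647-132353706, - strand: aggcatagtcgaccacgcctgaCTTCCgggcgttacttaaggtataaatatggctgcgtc
Snhg8, chr3:123508297-123508356, - strand: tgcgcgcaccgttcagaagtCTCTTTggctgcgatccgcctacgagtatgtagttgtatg
Snhg12, chr4:132308658-132308717, + strand: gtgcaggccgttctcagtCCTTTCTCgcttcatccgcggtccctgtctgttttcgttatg
Snhg1, chr19:8723467-8723526, + strand: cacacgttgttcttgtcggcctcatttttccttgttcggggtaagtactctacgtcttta
Such a run stood in 9 of 15 host gene windows, in 38 of 71 windows of cytosolic ribosomal protein genes (53.5%) and in 30.7% of all 32851 windows in the table. With the C exactly at the start it stood in 3 of the 15 host gene windows, in 18.3% of the ribosomal protein gene windows and in 2.51% of all windows. Among other lncRNAs 40.4% of 52 windows held a run. Snhg1, Zfas1, Snhg15, Dancr, Snhg20 and another annotated start of Gas5 have no run that meets the rule. Snhg4, Snhg6 and Epb41l4aos have no window in the table, so the 15 windows belong to 13 genes. Both windows of 1110038B12Rik, which overlap, are among the 9. A match describes letters and not use of the site.

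Snhg1 was the most abundant falling host gene. It stood at 328, 290 and 223 TPM in epidermal and 44.8, 49.0 and 33.6 TPM in ETA sheets, 6.60-fold lower between the means (log2 change -2.69 ± 0.22, limma adjusted p = 2.26e-05). Gas5, whose RNA is a classic target of nonsense-mediated decay and accumulates in growth-arrested cells, stood at 78.8, 52.2 and 72.6 TPM against 10.2, 8.17 and 11.3 TPM, 6.87-fold lower. Both changes kept their call after centring, at -1.23 and -1.19.

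Other hosts changed by a similar size. 2410006H16Rik, which holds Snord49a, Snord49b and Snord65, fell from 245 ± 105 to 24.4 ± 5.30 TPM. Zfas1, host of Snord12, fell from 96.4 ± 32.4 to 16.8 ± 6.03 TPM. Snhg3, host of Snora73a and Snora73b, fell from 185 ± 15.5 to 43.9 ± 11.8 TPM, and its change was not called after centring (-0.61). Snhg8 stood at 129, 103 and 135 TPM in epidermal sheets and at 27.9, 0 and 28.9 TPM in ETA sheets; with ETA sheet 2 at 0 its fitted change, -3.68 ± 1.12, is imprecise. Snhg9 was listed at 0 in epidermal sheet 1 and in all ETA sheets, and its call was lost in 5 of the 6 runs that left out 1 library.

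Snhg6 was the host gene that rose. It stood at 100, 111 and 149 TPM in epidermal and 237, 197 and 230 TPM in ETA sheets, 1.84-fold higher without overlap (log2 change 0.89 ± 0.20, limma adjusted p = 0.00367). It holds a single annotated snoRNA, Snord87. Dancr overlapped between groups, at 25.4, 29.8 and 22.1 against 14.7, 25.5 and 31.5 TPM, and its log2 change of -0.16 turned to 1.31 after centring.

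The protein genes of the snoRNA particles were lower along with the hosts. All 15 tested were called lower, and 13 of them also after centring, against 63.4% and 19.5% of all genes tested. Fbl, which encodes the methyltransferase fibrillarin, changed by -2.15 and Dkc1, the pseudouridine synthase dyskerin, by -3.43; both were named after their values were seen. Ruvbl1, an ATPase of particle assembly, fell from 24.3 ± 5.86 to 1.21 ± 0.21 TPM. Nhp2 fell less, from 189 ± 26.9 to 93.6 ± 35.1 TPM, and turned to 0.39 after centring.

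Genes for RNA decay were given as 2 lists. All 19 nuclear exosome and decay genes were called lower, 10 of them also after centring and 1 higher after it. Of all genes tested, 63.4% were lower as deposited and 19.5% after centring. Exosc7, an exosome subunit, fell from 73.1 ± 6.48 to 3.37 ± 1.40 TPM. Of 17 nonsense-mediated decay genes 12 were called lower, near the share of all genes, and none higher. After centring 2 were lower and 8 higher, while 19.5% of all genes were then lower and 30.0% higher. Magoh, of the exon junction complex, changed by -2.87 and Upf1, the central helicase, by -0.61 without a call, turning to 0.85 and a call higher after centring.

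**Figure D3:**
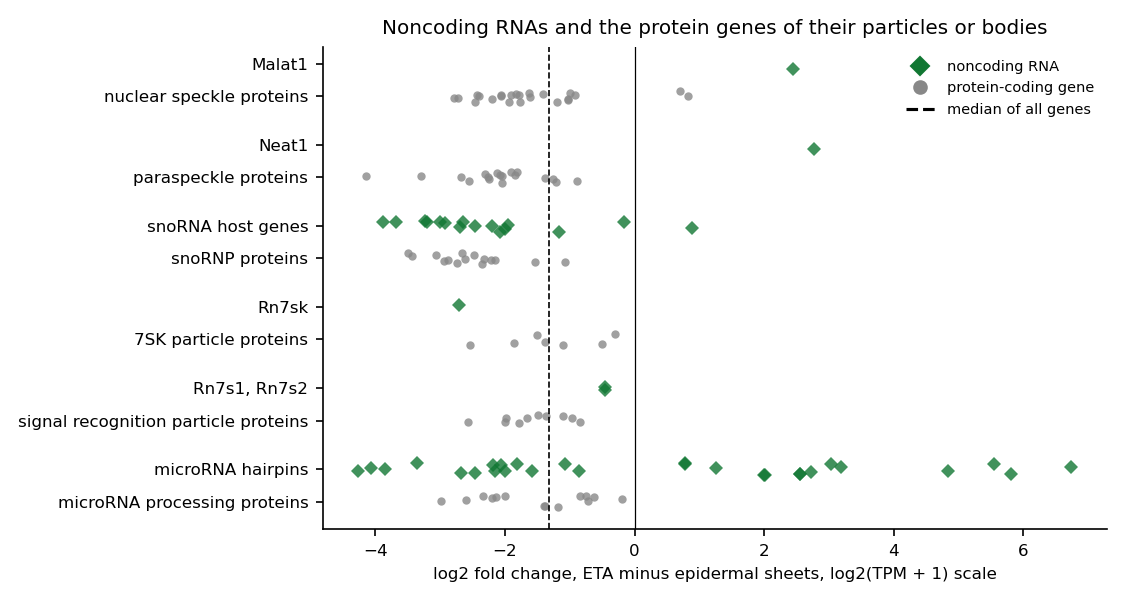
Log2 fold change (horizontal axis, ETA minus epidermal sheets, log2(TPM + 1) scale) of noncoding RNAs, as diamonds, and of the protein-coding genes of the particle or body each is known from, as circles, with the median of all genes dashed. Malat1 and Neat1 lie to the right of 0 while 21 of 23 speckle and all 18 paraspeckle protein genes lie to the left; host genes and snoRNP protein genes lie mostly on the same side. Hairpins listed at 0 in 1 group are drawn at their fitted value.

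Of the 38 rises, 25 were among the other lncRNAs. Of 55, 25 were called higher, 16 lower and 14 were not called, so 45.5% were higher. Of the 25, 17 reached 10 TPM in ETA sheets only, where the rule itself favours a rise. Among the 26 that reached it in both groups, 8 were called higher, 7 lower and 11 were not called. The background of 14.4% higher among all genes averaging 10 TPM or more is therefore not a like-for-like measure of this class. Their median log2 change was 1.26. The summed share of the library was 0.155 ± 0.004% in epidermal and 0.557 ± 0.109% in ETA sheets (SD, n = 3 each); without Rnf227 it was 0.134 ± 0.002% and 0.249 ± 0.064%. After centring 35 were higher and 2 lower, against 30.0% and 19.5% of all genes tested. Of the 35, 19 reached 10 TPM in ETA sheets only. Most of the 55 are known by clone or locus names and have no role that can be stated.

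Rnf227 was the most abundant of them. It stood at 239, 216 and 182 TPM in epidermal and 2465, 3506 and 3267 TPM in ETA sheets, 14.5-fold higher (log2 change 3.85 ± 0.20, limma adjusted p = 3.63e-06). RefSeq lists the transcript as noncoding, whereas the GENCODE annotation calls the gene protein-coding, with a RING finger name. Its class here is therefore that of the RefSeq accession.

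4930413G21Rik stood at 31.3, 29.2 and 31.5 TPM against 337, 432 and 382 TPM, 12.5-fold higher with little spread in either group. 3300005D01Rik rose from 15.1 ± 2.91 to 203 ± 44.3 TPM and 2310005A03Rik from 5.32 ± 4.11 to 105 ± 31.9 TPM. 1190028D05Rik, at 14.1, 15.6 and 0 TPM in epidermal sheets, stood at 97.5, 137 and 107 TPM in ETA sheets. Its zero in epidermal sheet 3 makes the fitted change, 4.17 ± 0.93, less certain than the separation of the groups.

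For 3 more lncRNAs the epidermal level was at or near 0 and ETA sheet 2 was the highest library. Ctrcos stood at 0, 11.3 and 0 TPM against 56.8, 447 and 56.7 TPM. 1700047E10Rik and Gm37065 were listed at 0 in every epidermal sheet, with 14.4, 41.1 and 5.54 TPM and with 6.81, 71.2 and 7.90 TPM in ETA sheets. All 3 kept their call when ETA sheet 2 was left out. No fold is given against a group listed at 0.

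Falls among the other lncRNAs were fewer. Hotairm1, a transcript of the HoxA cluster next to Hoxa2, stood at 92.7, 76.3 and 221 TPM in epidermal and 5.19, 0 and 10.5 TPM in ETA sheets, 24.8-fold lower between the means and still lower after centring (-3.35). 2310010J17Rik was the other fall that centring kept. Hotairm1 and 2310010J17Rik are among 9 of the 16 falls that reached 10 TPM in epidermal sheets only, where the rule itself favours a fall. Of the 26 other lncRNAs that reached it in both groups, 7 were called lower, and none was lower after centring. BC064078, among the most abundant, fell from 191 ± 42.9 to 78.1 ± 32.2 TPM, close to the median gene, and turned to 0.14 after centring. A730063M14Rik changed by -3.05, 1300002E11Rik by -2.50 and 9330162012Rik by -2.29, and none of those 3 was called after centring. They too reached 10 TPM in epidermal sheets only.

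Tincr, named for a human lncRNA required for terminal differentiation of keratinocytes, was not called. It stood at 53.7, 68.4 and 80.7 TPM in epidermal and 68.9, 28.8 and 39.0 TPM in ETA sheets, and the groups overlapped through ETA sheet 1 (log2 change -0.63 ± 0.32, limma adjusted p = 0.102). After centring the change was 0.83 and called higher, so its direction depends on the scaling. Tincr was singled out after its values were seen.

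**Figure D4:**
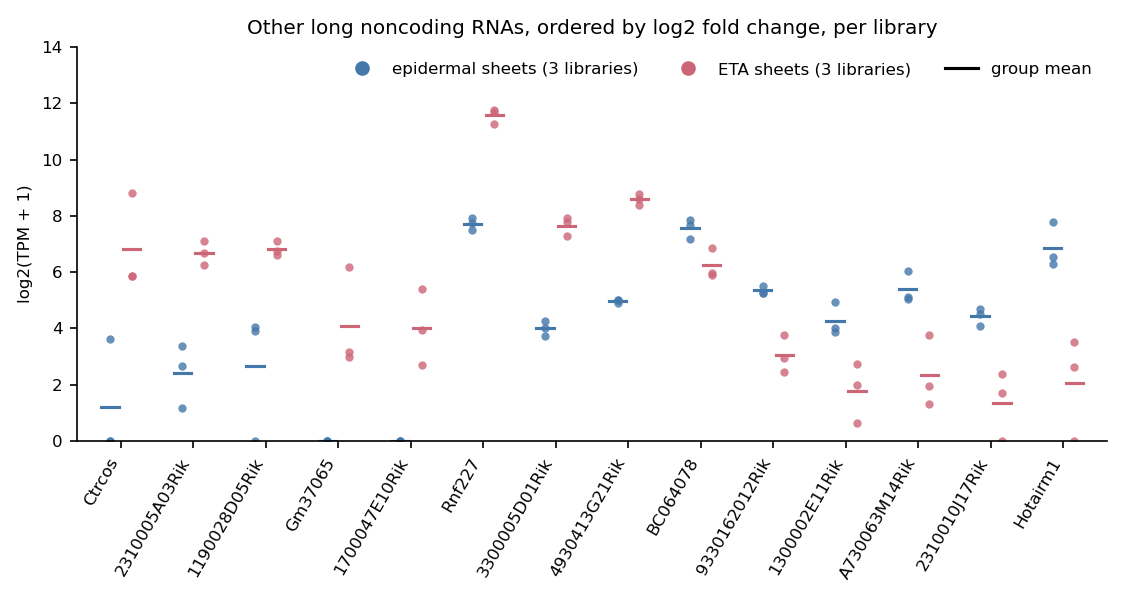
Log2(TPM + 1) per library (vertical axis) of the named other lncRNAs, ordered by log2 fold change, with 3 epidermal and 3 ETA sheets as points and group means as bars. Rnf227 and 4930413G21Rik have tight groups; Ctrcos, Gm37065 and 1700047E10Rik rise from epidermal libraries at or near 0 and have ETA sheet 2 highest.

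Several rising lncRNAs overlap or adjoin coding genes that also rose. Map2k3os starts 187 bases from Map2k3, a kinase of the p38 pathway: Map2k3os rose from 6.58 ± 1.54 to 52.5 ± 17.3 TPM and Map2k3 from 83.9 ± 10.4 to 776 ± 87.4 TPM. 4930413G21Rik overlaps Rbbp6, an RB-binding ubiquitin ligase, which went from 49.4 to 293 TPM. Gm16894 overlaps Il1r2, the decoy receptor for interleukin 1, which went from 110 to 488 TPM, and 2610206C17Rik overlaps Zfand6, which went from 158 to 787 TPM. The libraries were made with a kit that keeps the strand, but whether strand was used in the counting is not given in the sources used here, so reads of overlapping genes may be shared.

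Across the class the neighbours were mixed. Of 11 rising other lncRNAs with a tested coding gene within 10 kb, that gene was higher in 4, lower in 5 and not called in 2. Of 15 falling ones the neighbour was higher in 1, lower in 9 and not called in 5. For coding genes called higher, 27.9% of 648 nearest coding neighbours were also higher, and for all coding genes 8.54% of 7205. Rnf227 is 632 bases from Chd3, a chromatin remodeller, which fell from 13.2 to 1.01 TPM. Neat1 is 5494 bases from Frmd8, which changed by -1.42, turning to 0.04 after centring. The distances are from the GRCm38 annotation.

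Mir22hg, the host transcript of miR-22, rose. It stood at 40.4, 56.0 and 34.7 TPM in epidermal and 94.96, 104 and 156 TPM in ETA sheets, 2.71-fold higher without overlap (log2 change 1.41 ± 0.26, limma adjusted p = 0.00124). The mature miR-22 was not measured here.

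The mature microRNAs of the hairpins the small RNA results turn on are shown to make clear which of them share a seed, the bases 2 to 8 that pair with targets, in capitals (RefSeq, GRCm38.p6).
let-7a-5p: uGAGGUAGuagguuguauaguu
let-7f-5p: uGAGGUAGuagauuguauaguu
let-7d-5p: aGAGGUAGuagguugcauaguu
let-7c-5p: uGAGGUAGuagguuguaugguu
miR-23a-3p: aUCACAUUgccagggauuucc
miR-27a-3p: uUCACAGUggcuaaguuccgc
miR-24-3p: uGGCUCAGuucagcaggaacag
miR-7014-3p: cCUCUUUCauaccaaccacag
miR-1938: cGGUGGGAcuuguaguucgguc
miR-3473f: cAAAUAGGacuggagagaug
miR-8116: aAGGAUCCggggcuaguuggc
The 4 let-7 forms share the seed GAGGUAG, and no other 5p or 3p seed is shared outside the let-7 group. Of 28 hairpin genes 26 have a mature sequence in the table.

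Small RNA rows were the least precise. The hairpins span 56 to 147 bases and the small nucleolar and Cajal body RNAs 55 to 157, while the reads were pairs of 25 bases from a long-RNA library, so a row reports reads from the precursor or from a surrounding transcript and not the mature RNA. Of the 52 small RNAs, 20 to 33 were listed at 0 in any one library and in epidermal sheet 3 unrelated rows shared identical values: Mir24-2 with Mir1668 and Mir8117, and Snora65 with Scarna3a. Among them 5 were called higher (9.62%), 7 lower (13.5%) and 40 were not called. Of all genes averaging 10 TPM or more, 14.4% were called higher and 67.7% lower. Of the 52, 18 reached 10 TPM in both groups, with 1 called higher and 3 lower. Another 26 reached it in epidermal sheets only, with 4 lower, Snora28 included. The remaining 8 reached it in ETA sheets only, with 4 higher: Mirlet7a-1, Mirlet7f-1, Mir7014 and Mir1938. For genes that reached it in 1 group only, the rule itself favours a difference. Among the 28 hairpins the calls were 5 higher and 5 lower, 17.9% each.

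In the let-7 cluster 2 of 3 hairpins were called higher. Mirlet7a-1 was listed at 0 in every epidermal sheet and at 85.5, 172 and 80.5 TPM in ETA sheets (limma adjusted p = 3.63e-06). Mirlet7f-1, from the same cluster, was at 0 in every epidermal sheet and at 57.6, 87.3 and 32.5 TPM in ETA sheets (limma adjusted p = 7.40e-06). Both reached 10 TPM in ETA sheets only, so the rule itself favours their rise. Mirlet7d, the cluster's remaining hairpin, overlapped between groups at 0, 0 and 61.1 against 9.74, 0 and 28.1 TPM. Mirlet7c-2 of another chromosome pointed the other way, at 50, 39.5 and 0 against 6.94, 0 and 0 TPM, without a call. Of the 4 hairpins with the seed GAGGUAG, 2 were called higher and 2 were not called.

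The hairpins of the miR-23a cluster, which lie within 10 kb of each other, were not called. Mir23a stood at 0, 47.4 and 67.7 TPM in epidermal and 87.0, 291 and 96.9 TPM in ETA sheets; the groups did not overlap, but the zero leaves an SE of 1.39 on a change of 3.19 (limma adjusted p = 0.0634). It passed the threshold after centring, with a pseudocount of 5 and with a 5 TPM filter. Mir27a and Mir24-2 overlapped between groups; Mir24-2 was called higher after centring (4.01).

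The other 3 hairpins called higher each lie inside a coding gene that was also called higher. Mir7014 lies in Ecm1, which encodes an extracellular matrix protein made by keratinocytes (log2 change 3.43), and was at 0 in every epidermal sheet and at 25.7, 57.0 and 64.2 TPM in ETA sheets. Mir1938 lies in Ifrd1 (1.92) and was at 0 against 9.55, 42.9 and 49.3 TPM. Mir3473f lies in Bcl2 (2.11), the survival gene, and stood at 7.70, 76.6 and 59.9 against 126, 447 and 205 TPM. Mir8116, called lower at 107, 175 and 180 against 28.5, 42.7 and 27.0 TPM, lies in Ache, also lower (-2.18). Mir3470b, called lower, lies in Gramd1c, which was higher (3.83). Reads of the surrounding transcript can be counted in these rows, and this was not tested.

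**Figure D5:**
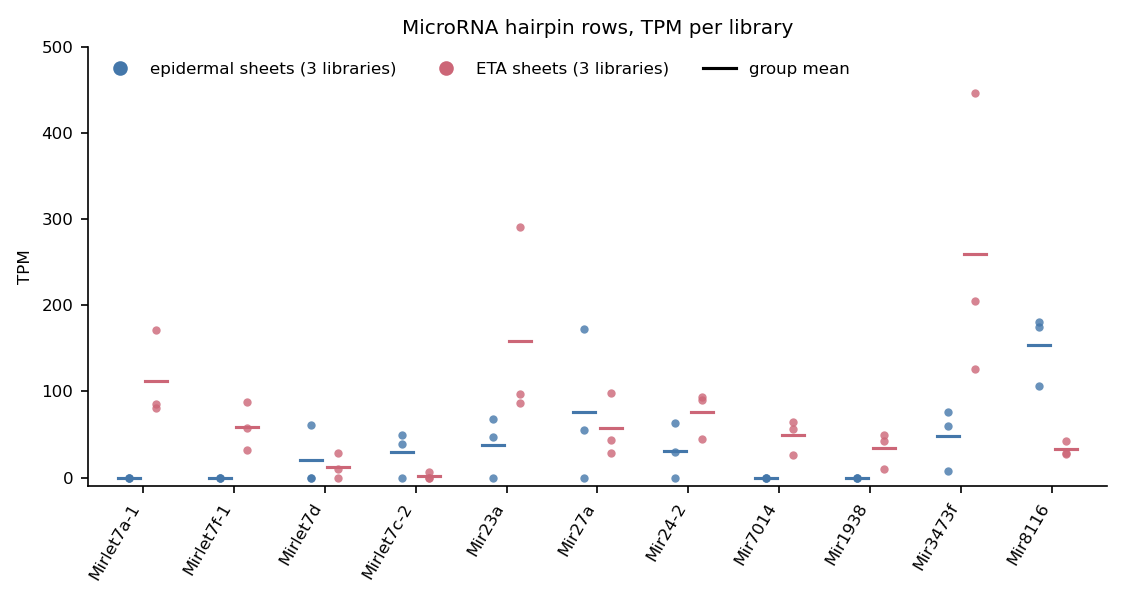
TPM per library (vertical axis, linear) of 11 microRNA hairpin rows, with 3 epidermal and 3 ETA sheets as points and group means as bars. Mirlet7a-1, Mirlet7f-1, Mir7014 and Mir1938 are at 0 in every epidermal sheet and above 0 in every ETA sheet, while Mirlet7d and Mir27a overlap.

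Of 14 microRNA processing genes tested, 10 were called lower and none higher. The lower share was 71.4%, near the 63.4% of all genes tested. After centring 3 were lower and 3 higher, against 19.5% and 30.0% of all genes tested. Ran, the GTPase that drives export of the precursors, fell from 146 ± 9.02 to 28.6 ± 5.69 TPM. Prkra, a partner of Dicer, changed by -2.99.

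Among 17 small nucleolar and Cajal body RNAs 1 was called, 5.88% against 82.1% of all genes averaging 10 TPM or more. It was Snora28, which stood at 42.6, 69.7 and 78.3 TPM in epidermal and 11.1, 0 and 0 TPM in ETA sheets. All 17 were listed at 0 in ETA sheet 2, so the class has no usable value there. The brain RNA Bc1, placed among the small RNAs although the list of host genes held it by mistake, stood at 501, 133 and 11370 TPM against 234, 461 and 27.1 TPM. Epidermal sheet 3 alone carries its mean, and raises the summed share of small RNAs there to 1.32% of the library. The spliceosomal Rnu6 was at 59.3, 50.6 and 0 against 79.6, 181 and 77.2 TPM without a call.

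Rn7sk, the RNA that holds the elongation factor P-TEFb inactive, stood at 49.9, 31.1 and 49.1 TPM against 13.9, 0 and 18.9 TPM; it was called lower but lost the call when any 1 epidermal sheet was left out. Larp7, its stabiliser, changed by -2.54. Of 7 proteins of the Rn7sk particle 5 were called lower, 71.4% against 63.4% of all genes tested, and none higher. After centring 2 were higher and 1 lower, against 30.0% and 19.5% of all genes tested, and Hexim1 turned to 0.09. Rn7s1 and Rn7s2, near-identical rows of the signal recognition particle RNA, were not called (-0.45 each, turning to 1.01 without a call after centring), while all 10 of its protein genes were called lower, Srp14 from 138 to 34.5 TPM and Srp72 by -2.57; after centring 3 were lower and 1 higher.

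The lists for particles with no abundant RNA here were mostly called lower, as were 63.4% of all genes tested. Of 10 genes of RNase P and RNase MRP, 9 were called lower and none higher, with Pop5 at -2.33 and Rpp14 at -3.05. After centring 3 of the 10 were lower and none higher, against 19.5% and 30.0% of all genes tested. All 6 tested genes for Ro, La and telomerase proteins were called lower, but after centring 1 was lower and none higher. Ssb, which encodes La, changed by -1.30, turning to 0.17 after centring, and Tep1 by -2.26.

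The 1 row named as ribosomal RNA was not called as deposited. Others could be among the rows without a gene name, which the annotation used here did not identify. Rn28s1 stood at 1356, 2491 and 1504 TPM in epidermal and 1030, 1386 and 1309 TPM in ETA sheets, and its log2 change of -0.48 ± 0.25 turned to 0.99 and a call higher after centring. Of the 5 rows without a gene name, NR_003278 was near equal at 1810, 2273 and 1920 against 1378, 2252 and 2345 TPM, with a change of -0.04 that turned to 1.43 and a call higher after centring. NR_003280 ranged from 23.1 to 401 TPM within the epidermal group alone and turned from -0.02 to 1.44 without a call. NR_015528, NR_040291 and NR_046233 were called lower, by -3.48, -1.83 and -1.30; the last turned to 0.16 after centring.

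Of 21 pseudogenes 13 were called lower, a share near the 63.4% of all genes, 4 higher and 4 were not called. After centring 7 were lower and 6 higher, against 19.5% and 30.0% of all genes tested. Of the 21, 6 reached 10 TPM in epidermal sheets only, with 5 lower, and 3 in ETA sheets only, with 2 higher. For those the rule itself favours a difference. Among the 12 that reached it in both groups, 8 were lower and 2 higher. Several pseudogenes of ribosomal protein genes were lower, as were their parents. Rpl14-ps1 fell from 1127 ± 149 to 260 ± 85.7 TPM (log2 change -2.15) and Rpl14 changed by -2.19. Rps15a-ps4 changed by -3.14 and Rps15a-ps6 by -2.47, against -2.77 for Rps15a. Rplp2-ps1 differed from its parent: it stood at 9.11, 9.58 and 0 against 12.8, 45.1 and 8.01 TPM, overlapping without a call (1.91; called higher after centring, 3.38), while Rplp2 was called lower (-1.88). Reads of 25 bases can be shared between a pseudogene and its parent, so the rows are not separate measurements. Gm6793 changed by -2.03 and, without a call, to -0.56 after centring.

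Ubb-ps, of the polyubiquitin gene, was not called at 966, 844 and 749 against 1242, 526 and 1256 TPM, while Ubb was called lower as deposited (-0.51) and higher after centring (0.95). Sprr2g, annotated as a pseudogene of a cornified envelope protein family, rose from 3.80 ± 3.41 to 27.7 ± 8.06 TPM. Among the largest falls, Serpina3h changed by -3.78, Gm12669 by -2.82 and 6820431F20Rik by -2.63. 4933409K07Rik, LOC668415 and Olfr856-ps1 were the other pseudogenes called higher, by 1.06, 1.51 and 1.94. Olfr856-ps1 and LOC668415 lost their call without ETA sheet 2. Oaz1-ps, called lower, lost its call in 4 of the 6 runs that left out 1 library. Serpina3h, 6820431F20Rik and Oaz1-ps reached 10 TPM in epidermal sheets only, and Sprr2g and LOC668415 in ETA sheets only. There the rule itself favours a difference.

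Of the 3 genes now annotated as coding, Mtln, which encodes a small mitochondrial protein, stood at 45.4, 47.8 and 34.8 against 16.6, 0 and 9.75 TPM and was called lower (-2.92). 1810058I24Rik fell from a lowest epidermal value of 164 to at most 82.7 TPM (-1.44, turning to 0.03 after centring), and 0610012G03Rik was not called (-0.60, turning to 0.86).

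Markers of other cells also differed between the groups. All 4 tested T cell, all 4 tested melanocyte and 5 of 6 hair follicle and sebaceous gland genes were called lower in ETA sheets. So were 4 of 5 Langerhans cell genes, and the exception, Epcam, was called higher. Over all genes tested 63.4% were called lower and 10.5% higher. After centring 3 T cell, 3 melanocyte, 3 Langerhans cell and 5 hair follicle and sebaceous gland genes were lower, against 19.5% of all genes. Mlana was listed at 0 in every ETA sheet. Fibroblast and dermal genes were higher, 5 of 5, with a summed level of 7.04 to 10.8 TPM in epidermal and 55.8 to 66.6 TPM in ETA sheets, and Lum was at 0 in every epidermal sheet. Endothelial markers summed to at most 3.77 TPM in any library. The part of any of these in the rise of Malat1, Neat1 and the other lncRNAs, or in the fall of the host genes, was not tested.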

How the data were processed

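RNA-seq was done on total RNA of 3 epidermal and 3 ETA sheets, with directional libraries and paired reads of 25 bp, per the labels' protocols. The authors deposited a table of TPM values per RefSeq transcript, each library scaled to 1000000; Salmon, Bowtie2 and build mm9 are named in the submitters' processing notes, without versions or roles. Counts were not analysed here, so depth is unknown and no counting interval is given. Columns were assigned to samples by library number and grouped by sample title.

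TPM was summed per gene, naming 154 member rows by the RefSeq table and 5 by GENCODE; 5 kept their accession. The test covered 12575 genes averaging 1 TPM or more and used limma 3.58.1 (R 4.3.3, trended empirical Bayes, log2(TPM + 1), pseudocount 1), Benjamini-Hochberg adjusted. A fold change on this scale understates the change of low genes. The fit was tested on simulated data. The members and gene lists were chosen with earlier results of these data known. Named are, per class, the 5 most abundant members and the 5 called members of largest change in each direction, all listed lncRNAs and host genes, and per protein list the most abundant member and the largest called change in each direction. Genes outside these rules were named after their values were seen. Among them are neighbouring coding genes, clustered hairpins, Map2k3os, Gm16894, 2610206C17Rik, Rn7sk, Rn7s1, Rn7s2, Clk4 and Tincr. Alternatives were other pseudocounts and filters, median centring, trimmed-mean scaling, rescaling, a replicate block, single rows, each library left out, and groups by column header. Figures used matplotlib 3.10.9.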

Additional observations from a re-analysis of the deposited data

How the results depend on the processing

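Over all genes, 1321 higher and 7971 lower calls became 3775 and 2457 with median centring and 3130 and 2972 with trimmed-mean scaling. For the noncoding genes, 38 higher and 58 lower became 60 and 17 with centring and 57 and 18 with trimmed-mean scaling. With members at a mean of at least 5 TPM (251 genes), 58 were higher and 80 lower. Grouping by column header gave 0 calls over all genes and 0 for the noncoding genes by limma, with 71 and 6 at an unadjusted p under 0.05. Leaving out each library gave 1180 to 1283 higher and 7194 to 8075 lower over all genes, and 35 to 40 and 50 to 58 for the noncoding genes.

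Whether same-numbered sheets were paired is not given in the sources used here. They deviated from their group means with correlations of 0.02, -0.02 and -0.04, which cannot show whether they were paired. With the replicate block 49 noncoding genes were higher and 63 lower, and 1310 and 7742 over all genes.

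Among the genes named by rule, log2 changes reversed as follows, with the cause not tested; Tincr, Ubb, Upf1, Rn7s1, Rn7s2 and Frmd8, named otherwise, reversed with centring. With centring and with trimmed-mean scaling, respectively, they became 0.026 and 0.034 for 1810058I24Rik, 0.86 and 0.84 for 0610012G03Rik, 0.36 and 0.35 for Norad, 0.55 and 0.50 for Tug1, 0.35 and 0.26 for Oip5os1, 0.14 and 0.15 for BC064078, 0.99 and 1.01 for Rn28s1, 1.43 and 1.45 for NR_003278, 1.44 and 1.45 for NR_003280, 0.16 and 0.14 for NR_046233, 1.31 and 1.27 for Dancr, 0.39 and 0.40 for Nhp2, 0.089 and 0.075 for Hexim1, 0.17 and 0.17 for Ssb and 0.067 and 0.073 for Pabpn1; Snhg20 became 0.29 with centring. Rescaled without the 100 most abundant genes, Rn28s1 became 0.053, NR_003280 0.51 and Dancr 0.36. Leaving out 1 library reversed uncalled genes only: NR_003278 ranged from -0.18 to 0.21, NR_003280 from -1.26 to 0.77, Dancr from -0.38 to 0.14, Snhg20 from -1.81 to 0.072 and Ubb-ps from -0.069 to 0.56.

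Calls held in every such run for 6 of 6 listed lncRNAs, 13 of 14 host genes, 36 of 41 other lncRNAs, 14 of 17 pseudogenes and 7 of 12 small RNAs. Unknown depth limits all rows near 0.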
